A study of Mus musculus with 3 samples.

Results

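The megalin and cubilin endocytic receptor complex was described here in mpkDCT4a cells through 9 genes, which were chosen by name and matched to the 55487 genes of the deposited count table through their Ensembl identifiers and GENCODE M21 symbols. The 9 genes encode endocytic receptors and an anchor protein (Lrp2, Cubn, Amn, Lrp1), a receptor chaperone (Lrpap1), a cargo adaptor (Dab2), and parts of the clathrin coat and scission machinery (Cltc, Ap2m1, Dnm2). mpkDCT4a is an immortalised mouse cell line assigned by the labels to the distal convoluted tubule of the kidney, and all 3 samples were labelled as replicates of unmodified cells. They therefore form 1 group, with no control and no second condition. Every culture had the same medium, with 2% serum, 5 µg/ml insulin, 5 µg/ml transferrin, 90 nM selenate, 10 ng/ml epidermal growth factor, 50 nM dexamethasone and 1 nM triiodothyronine. The series belongs to a study of the three-dimensional arrangement of gene regulation in this nephron segment.

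Megalin, encoded by Lrp2, is a giant member of the low-density lipoprotein (LDL) receptor family that takes up filtered proteins, hormones and vitamin carriers. In the kidney it is known above all from the brush border of the proximal tubule, where it works with cubilin (Cubn), a peripheral membrane protein that depends on amnionless (Amn) to be anchored and carried to the cell surface. The chaperone RAP (Lrpap1) keeps newly made receptors of this family from binding ligands too early, and Dab2 links receptor tails to clathrin and to the AP-2 adaptor. Clathrin heavy chain (Cltc) builds the coat, the AP-2 mu subunit (Ap2m1) reads sorting signals in receptor tails, and dynamin 2 (Dnm2) cuts the vesicle free.

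The start regions of the 3 genes of the megalin, cubilin and amnionless trio are shown because the message of Lrp2 was found well above those of both partners. Each runs from 250 bases before to 50 bases after the RefSeq start on GRCm38.p6, 5′ to 3′ along the gene, and capitals mark CpG dinucleotides. Lrp2 lies at chr2:69585980-69586279 on the minus strand, Cubn at chr2:13491827-13492126 on the minus strand and Amn at chr12:111270846-111271145 on the plus strand.
Lrp2: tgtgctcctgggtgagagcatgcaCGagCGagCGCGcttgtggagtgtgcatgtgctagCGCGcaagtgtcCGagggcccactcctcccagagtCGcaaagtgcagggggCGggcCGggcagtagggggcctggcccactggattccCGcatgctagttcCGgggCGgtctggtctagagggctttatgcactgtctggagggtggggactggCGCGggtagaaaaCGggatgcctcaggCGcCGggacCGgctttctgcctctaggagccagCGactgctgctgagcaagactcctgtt
Cubn: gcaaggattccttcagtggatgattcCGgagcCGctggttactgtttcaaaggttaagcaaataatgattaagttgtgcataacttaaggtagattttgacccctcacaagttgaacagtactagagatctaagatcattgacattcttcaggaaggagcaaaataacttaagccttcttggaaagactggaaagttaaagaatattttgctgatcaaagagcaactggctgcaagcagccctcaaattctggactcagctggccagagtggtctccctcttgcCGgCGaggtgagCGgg
Amn: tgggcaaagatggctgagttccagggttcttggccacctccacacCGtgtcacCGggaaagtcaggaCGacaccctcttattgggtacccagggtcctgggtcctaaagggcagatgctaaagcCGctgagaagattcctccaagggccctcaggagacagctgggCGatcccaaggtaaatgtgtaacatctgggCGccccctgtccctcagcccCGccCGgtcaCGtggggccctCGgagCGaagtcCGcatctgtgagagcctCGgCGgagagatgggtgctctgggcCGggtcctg
The Lrp2 window held 20 CpG dinucleotides, the Amn window 15 and the Cubn window 5, against a median of 7 over all 32851 windows of this length in the RefSeq table. The Cubn window lies wholly upstream of the start at 13491813 that GENCODE gives for Cubn, while those of Lrp2 and Amn include theirs. Of all windows, 26.5%, 34.6% and 62.0% held at least as many CpG as those of Lrp2, Amn and Cubn. The GC box, searched as GGGCGG on both strands, was in the Lrp2 and Amn windows and not in that of Cubn, and 35.7% of all windows held it. All 9 genes had a window in the table, and Dab2 had a pair. Of these 10 windows, 7 held a GC box, 2 held CCAAT (Amn and Dnm2, against 37.4% of all windows) and 0 held TATAAA (against 13.6%). The CpG numbers of the other windows ran from 16 for Lrp1 to 27 for Cltc, apart from 2 in the upstream window of Dab2, whose downstream window held 19. A match of letters is a description of the window and not a binding site.

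Megalin was expressed in this line, labelled as distal convoluted tubule, while cubilin was close to the detection limit and amnionless had no counts. The count table was small, with 436983 counts in replicate 1, 482418 in replicate 2 and 443192 in replicate 3. No source used here states if few reads were sequenced or if the table counts only some of them, so the limits given for genes at 0 counts hold for this table alone. Levels are expressed as CPM, counts scaled to a common library size, in which 1 count was worth between 2.07 and 2.31 CPM. At a mean of at least 1 CPM, called detected from here on, 8 of the 9 genes were present, against 50.6% of the 21974 protein-coding genes. At 10 CPM or more there were 7 of 9, against 40.8%. The median of the 9 genes was 133 CPM, or 12.9 CPM per kilobase (kb) of merged exon length, where all protein-coding genes had medians of 1.46 CPM and 0.408 CPM per kb and the detected ones 39.6 CPM and 8.54 CPM per kb. Together the 9 genes took 0.284%, 0.299% and 0.294% of the counts of the 3 libraries. Values after ± are SDs over the 3 libraries, and ratios between genes are taken per kb.

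**Figure D1:**
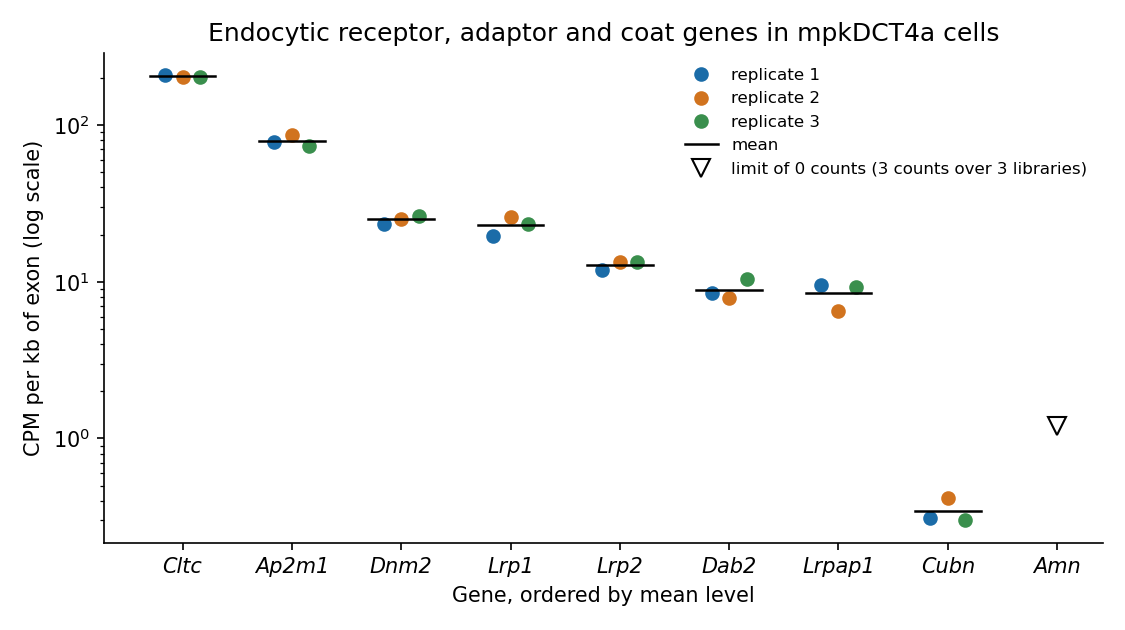
Level of each gene in CPM per kb of merged exon length (log axis), with 1 point per library, a bar for the mean, and genes ordered by mean. Cltc stood highest at 205 CPM per kb and Cubn lowest of the genes with counts at 0.34 CPM per kb, and the open triangle for Amn is the limit of 1.19 CPM per kb that 0 counts allow.

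Lrp2 (ENSMUSG00000027070) lies on chromosome 2 of GRCm38 from 69424340 to 69586065, on the minus strand. Its counts were 86, 108 and 99 in the order of the replicates, as for all genes below. This gave 215 ± 14.1 CPM (n = 3), and since its merged exons span 16.7 kb, 12.9 ± 0.84 CPM per kb. The 3 libraries lay close together, with replicate 1 the lowest. Per kb, Lrp2 stood above 62.8% of the detected protein-coding genes. The protein-coding genes with the most similar level per kb over the 3 libraries were Mtx2 (mean absolute difference 0.026 on the log2 scale), Extl2 (0.035) and Prkd3 (0.039), a likeness of level only, since 3 replicates of 1 condition hold no pattern of regulation.

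Cubn (ENSMUSG00000026726, chromosome 2, 13276338 to 13491813, minus strand) had 2, 3 and 2 counts. Its level was 5.10 ± 0.96 CPM, with a 95% exact Poisson interval of 2.07 to 10.6 CPM from the 7 counts, and 0.342 ± 0.065 CPM per kb. Cubilin message was thus found in every library, but at so few counts that its level is known only within that wide interval. It stood above 2.03% of the detected protein-coding genes per kb. Over 2.46% of its exon length Cubn overlaps Gm13270, an RNA on the opposite strand that had 2 counts (2, 0 and 0), and the strand setting of the counting is not stated.

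Amn (ENSMUSG00000021278, chromosome 12, 111271095 to 111276426, plus strand) had 0 counts in each library. 0 counts allow up to 2.20 CPM over the 3 libraries together (3 counts of the summed size), or 6.92, 6.21 and 6.72 CPM in the single ones. Amn is short, with 1.84 kb of merged exons, so this limit is 1.19 CPM per kb and lies above the measured level of Cubn. The data therefore do not show which of cubilin and amnionless was lower per kb. None of the 50-base stretches of the Amn transcripts occurs in another annotated gene, and the same holds for Lrp2, Lrp1 and Lrpap1.

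Compared per kb, Lrp2 was 37.4 times as high as Cubn in summed counts (95% exact binomial interval 17.9 to 93.9). Against Amn, Lrp2 was at least 10.8-fold higher per kb, taking 3 counts over all libraries for Amn. Megalin thus stood above both of its partners in all 3 libraries. The log2 ratio of Lrp2 to Cubn, from CPM + 0.5 per kb, was 5.12, 4.90 and 5.32 in the single libraries. The exact two-sided sign-flip permutation test gave p = 0.25, which is the smallest value that 3 libraries allow, and 0.25 after Benjamini-Hochberg adjustment over the 11 fixed pairs. All 11 pairs had the same direction in all 3 libraries and this same p, that of Cubn to Amn only through the pseudocount. For this reason the binomial interval, which covers counting error only, is given for the ratios between single genes that both had counts.

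Lrp1 (ENSMUSG00000040249, chromosome 10, 127538161 to 127621148, minus strand) encodes the broadly expressed relative of megalin that clears proteases, their inhibitors and lipoproteins. It had 150, 221 and 185 counts, or 406 ± 56.3 CPM and 22.9 ± 3.18 CPM per kb. Replicate 1 was the lowest and replicate 2 the highest. Lrp2 had 0.559 times the level of Lrp1 per kb (95% interval 0.484 to 0.645).

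The 13 genes of the LDL receptor family that were listed, Lrp2 and Lrp1 among them, were mostly expressed. Of these, 11 were detected, against 50.6% of all protein-coding genes, and all 11 reached 10 CPM, against 40.8%. The median over the list was 78.1 CPM, or 8.02 CPM per kb. The highest per kb was Lrp10 at 47.4 ± 5.45 CPM per kb, followed by Lrp1 and by Lrp6, a co-receptor of WNT signalling, at 22.3 ± 1.16. Lrp2 made up 8.30%, 8.89% and 8.37% of the summed level per kb of the listed family genes in the 3 libraries, and Lrp1 13.7%, 17.2% and 14.7%. Lrp1b, a large relative of Lrp1, and Lrp3 had 0 counts.

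Lrpap1 (ENSMUSG00000029103, chromosome 5, 35091501 to 35105766, minus strand), the chaperone gene, had 17, 13 and 17 counts. Its level was 34.7 ± 6.80 CPM and 8.44 ± 1.65 CPM per kb, with replicate 2 below the other two. The chaperone message was lower per kb than that of its client Lrp1, at 0.364 times (95% interval 0.264 to 0.491), or 0.422 times with the longest annotated transcript as the length (0.307 to 0.569). Against Lrp2 the result depended on the length and on replicate 2. Lrpap1 had 0.651 times the level of Lrp2 per kb of merged exon (0.468 to 0.888). With the longest transcript it had 0.832 times that level, with an interval of 0.598 to 1.13 that includes 1 and with Lrpap1 lower in 2 of the 3 libraries. Without replicate 2 the ratio per kb of merged exon was 0.746 (0.501 to 1.08). The summed level of these 13 receptor genes was 15.0, 23.0 and 17.2 times that of Lrpap1 per kb in the 3 libraries, highest in replicate 2, where Lrpap1 was lowest.

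Dab2 (ENSMUSG00000022150, chromosome 15, 6299788 to 6440712, plus strand), the adaptor that binds the tail of megalin, had 27, 28 and 34 counts. This gave 65.5 ± 9.50 CPM and 8.92 ± 1.29 CPM per kb, with replicate 3 the highest. The adaptor was present at a level of the same order as its receptor. Dab2 had 0.691 times the level of Lrp2 per kb of merged exon (95% interval 0.539 to 0.879). This difference rests on the choice of length, because with the length of the longest annotated transcript the ratio of Dab2 to Lrp2 was 1.01 (0.785 to 1.28). Without replicate 2 it was 0.750 per kb of merged exon (0.552 to 1.01). Dab1, the neuronal paralog of Dab2, had 0 counts, which leaves Dab2 at least 32.0-fold higher per kb.

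Of the 9 cargo adaptor genes listed, 8 were detected, against 50.6% of all protein-coding genes. All 8 reached 10 CPM, against 40.8%, and the median of the list was 31.8 CPM (8.12 CPM per kb). Snx17, which recycles Lrp1 and other receptors of this family from endosomes, was the highest at 45.3 CPM per kb. It was followed by Gipc1 (29.9 CPM per kb), which binds the tail of megalin, and by Myo6 (16.2 CPM per kb), an actin motor that moves endocytic vesicles inward from the membrane. Dab2 made up 7.11%, 7.74% and 8.10% of the summed level per kb of the list in the 3 libraries.

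Clathrin heavy chain and AP-2 mu stood above all 4 receptor and anchor genes per kb. Whether dynamin 2 stood above Lrp1 beyond counting error depended on the length used. Cltc (ENSMUSG00000047126, chromosome 11, 86694351 to 86757565, minus strand) had 767, 833 and 770 counts, or 1739.9 ± 25.8 CPM and 205 ± 3.04 CPM per kb. The 3 libraries lay close together, and Cltc stood above 98.9% of the detected protein-coding genes per kb. Ap2m1 (ENSMUSG00000022841, chromosome 16, 20535478 to 20544909, plus strand) had 139, 173 and 135 counts, or 327 ± 28.5 CPM and 79.4 ± 6.91 CPM per kb, with replicate 2 the highest. Of its 50-base stretches, 28.8% occur in transcripts of other genes, chiefly the processed pseudogenes Gm13509, which had 15, 19 and 14 counts, and Gm18646, which had 0. The count of Ap2m1 is therefore uncertain by the reads that could be placed in either. Dnm2 (ENSMUSG00000033335, chromosome 9, 21424908 to 21507759, plus strand) had 54, 65 and 63 counts, or 133 ± 8.33 CPM and 25.0 ± 1.56 CPM per kb. It overlaps Tmed1, a gene on the opposite strand with 38 counts, over 3.88% of its exon length.

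Cltc had 2.57 times the level of Ap2m1 per kb (95% interval 2.32 to 2.85) and 8.17 times that of Dnm2 (7.02 to 9.55). The light chains Clta and Cltb, which decorate the heavy chain in the coat, summed to 53.2, 71.7 and 57.1 CPM per kb, so that the heavy chain stood 3.91, 2.83 and 3.55 times above them. Per kb of merged exon, messages of the clathrin coat were thus not at equal levels. The light chains and the AP-2 alpha, beta and sigma subunits were compared with this length only. Cltb has 4.87 kb of merged exon against 1.8 kb for Clta. AP-2 holds 1 copy of each of its 4 kinds of subunit. The summed alpha subunits (Ap2a1 and Ap2a2) stood at 80.7 ± 6.65, mu (Ap2m1) at 79.4 ± 6.91, beta (Ap2b1) at 66.9 ± 4.05 and sigma (Ap2s1) at 42.1 ± 6.20 CPM per kb. Alpha and mu overlapped across the libraries, and sigma lay below the other 3 in every library. All 8 clathrin and AP-2 genes were detected and reached 10 CPM, against 50.6% and 40.8% of all protein-coding genes. The median of the list was 208 CPM (50.8 CPM per kb).

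Dynamin 2 was the main dynamin. It made up 92.7%, 98.5% and 99.0% of the summed level per kb of the 3 classical dynamins and had 35.8 times the level of Dnm1 (95% interval 15.1 to 112). The size of this ratio rests on few counts, since without replicate 1 it was 126 times (22.2 to 5017), from 128 counts of Dnm2 and 1 of Dnm1, and without replicate 3 it was 23.4 times (9.77 to 73.5). Dnm1, known as the neuronal form, had 4, 1 and 0 counts, and Dnm3 had 1, 0 and 3 counts. Both rare forms were at so few counts that their order is not resolved.

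**Figure D2:**
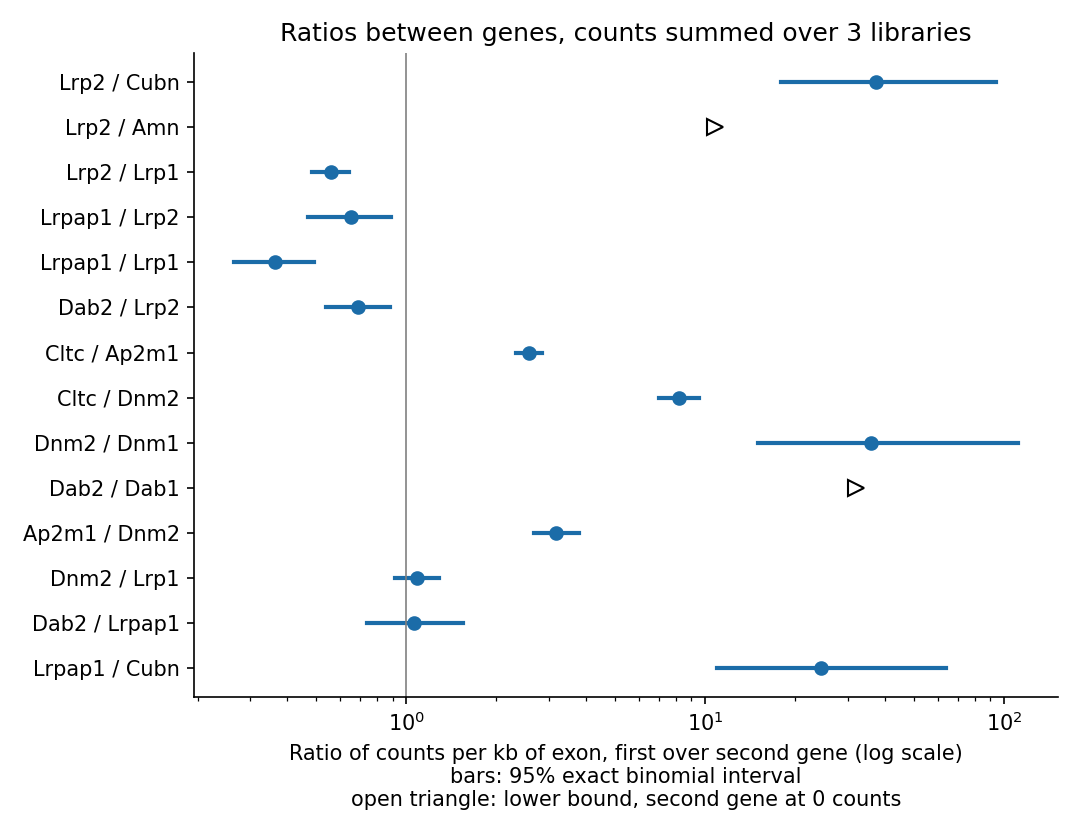
Ratio of counts per kb of merged exon between genes (log axis), with counts summed over the 3 libraries, bars for 95% exact binomial intervals and open triangles for lower bounds against a gene at 0 counts. Dnm2 to Lrp1 (1.09) and Dab2 to Lrpap1 (1.06) are the ratios whose intervals include 1 with this length. Cubn to Amn is not drawn because no ratio can be given.

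Ordered by level per kb, the genes ran from Cltc through Ap2m1, Dnm2, Lrp1, Lrp2, Dab2 and Lrpap1 to Cubn, with Amn at 0 counts. Of the 8 neighbouring pairs in this order, 6 had the same direction in all libraries, Cubn to Amn among them, although its direction cannot be read at this depth. Per kb of merged exon, Dnm2 and Lrp1 did not differ beyond their spread, at a ratio of 1.09 (95% interval 0.915 to 1.29), with Lrp1 the higher in replicate 2 (exact sign-flip p = 0.5, adjusted 0.571). With the longest transcript as the length, Dnm2 was the higher in all 3 libraries, at 1.39 times the level of Lrp1 (1.17 to 1.64). Dab2 and Lrpap1 did not differ beyond their spread either, at 1.06 (0.737 to 1.55), with Lrpap1 the higher in replicate 1 (exact sign-flip p = 0.75, adjusted 0.75). The largest step between neighbours that both had counts was that from Lrpap1 to Cubn, at 24.4 times (10.9 to 63.9). Ap2m1 had 3.18 times the level of Dnm2 (2.67 to 3.80). For the other pairs the exact sign-flip p was 0.25, or 0.333 adjusted over the 8 pairs. With the longest transcript as the length, Dab2 moved above Lrp2 in the order of mean levels, and the other places stayed as they were.

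None of these genes was called different between the replicates, which at the background share of calls does not set them apart from other genes. The chi-square test compared the 3 counts of each of 12473 detected genes with the library sizes, and with Benjamini-Hochberg adjustment over all of them it called 5 genes (0.0401%). None of the 8 genes that passed the filter of 1 CPM was among them, with adjusted p-values from 0.902 for Lrp1 to 0.990 for Cubn. That filter lets in genes with very few counts, such as Cubn with 7, for which a call was hardly possible. At an unadjusted p under 0.05 there was 1 of the 8, Lrp1 (chi-square p = 0.0297), against 4.89% of all genes tested. Lrp1 had a coefficient of variation of 13.9% where counting error alone gives 7.35%, and Ap2m1 had 8.70% against 8.19%. For the other 6 genes the variation between libraries was below the counting error, for example 1.48% against 3.56% for Cltc and 6.55% against 10.1% for Lrp2. Since the labels leave unsaid if each replicate was its own culture, the p-values speak of these 3 samples alone, and the variation among them may be technical.

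**Figure D3:**
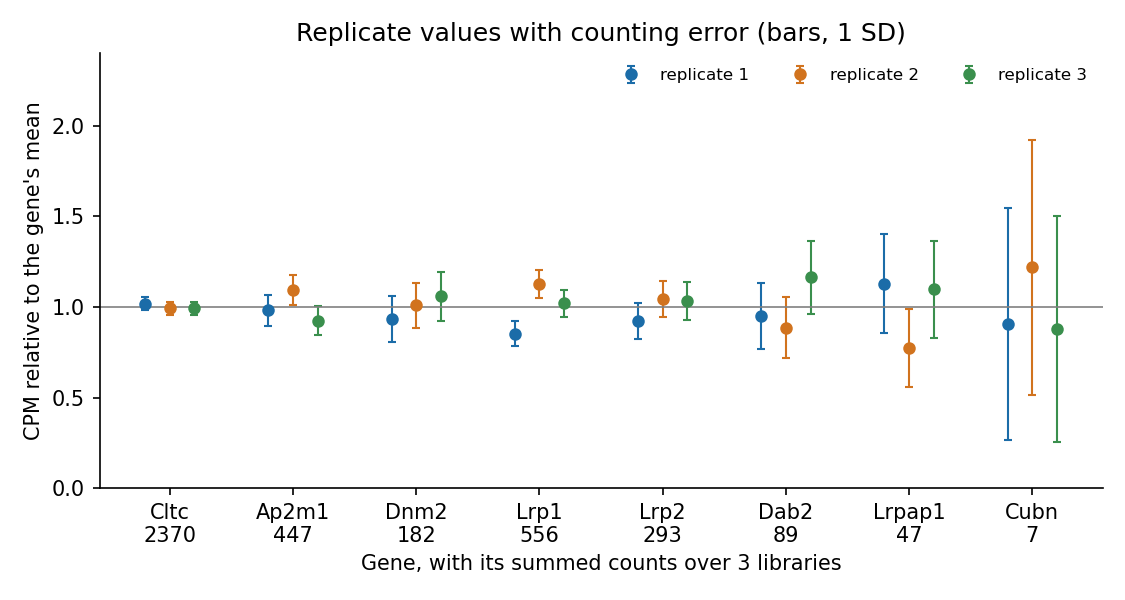
CPM of each library relative to the mean of the gene, with bars of 1 SD of counting error and the summed counts under each name. The points of most genes lie within 1 bar of the mean, Lrp1 has replicate 1 below and replicate 2 above it, and the bars of Cubn (7 counts) span most of the axis.

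The machinery that assembles, cuts off and uncoats clathrin pits was largely expressed around these genes. Of 24 such genes 22 were detected and 21 reached 10 CPM, against 50.6% and 40.8% of all protein-coding genes. The median of the list was 64.3 CPM (9.30 CPM per kb). Hspa8, the chaperone that strips clathrin from vesicles, was the highest at 317 ± 25.0 CPM per kb, followed by its cofactor Gak (37.5 CPM per kb) and by the membrane-bending epsin Epn1 (29.7 CPM per kb). Hspa8 was also the 1 gene of this list at an unadjusted p under 0.05 between replicates (chi-square p = 0.0231, adjusted 0.902). Of all genes tested, 4.89% fell under it. Dnajc6, the neuronal relative of Gak, and Amph, the amphiphysin of nerve terminals, had 0 counts.

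Genes that acidify endosomes and return receptors were also present. Of 12 listed genes 11 were detected, against 50.6% of all protein-coding genes, and all 11 reached 10 CPM, against 40.8%. The median of the list was 122 CPM (27.0 CPM per kb). The highest per kb were Atp6ap1, an accessory subunit of the proton pump (53.8 CPM per kb), the recycling factor Ehd1 (49.1 CPM per kb) and the pump subunit Atp6v0d1 (47.3 CPM per kb). Clcn5, the chloride-proton exchanger of endosomes that is mutated in Dent disease, a disorder of megalin-dependent uptake, had 140, 111 and 107 counts and 23.1 ± 4.47 CPM per kb. Replicate 1 was the highest for Clcn5 (unadjusted chi-square p = 0.0118, adjusted 0.902). Rab38, a small GTPase, had 0 counts.

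Genes for ligands and their carriers, listed together with the receptor gene Cd320, were detected at about the share of all protein-coding genes. Of 20 listed genes 9 were detected, against 50.6% of all, and 8 reached 10 CPM, against 40.8%, and the median was 0 CPM. The highest was Thbs1 (thrombospondin 1, cleared by LRP1) at 105 ± 14.7 CPM per kb, followed by Plau (urokinase, 36.7 CPM per kb) and Clu (clusterin, 27.5 CPM per kb). Thbs1 had the lowest unadjusted p of the genes listed, with 308, 323 and 241 counts (chi-square p = 0.00408, adjusted 0.836). The vitamin B12 carrier Tcn2, a ligand of megalin, had 7, 12 and 10 counts, and its own receptor gene Cd320 had 12, 11 and 6. Selenop, a selenium carrier that megalin takes up, had 12, 10 and 10. The 11 genes with 0 counts were A2m, Alb, Apoa1, Apoe, Gc, Lpl, Mdk, Pth, Rbp4, Trf (transferrin) and the intrinsic factor gene, listed as Gif in the annotation.

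Of 6 listed genes of caveolae, flask-shaped pits that form without clathrin, 4 were detected, against 50.6% of all protein-coding genes. At 10 CPM or more there were 3, against 40.8%. The median of the list was 53.4 CPM (16.1 CPM per kb). The coat gene Cavin1 stood at 259 ± 14.5 CPM per kb, Cav1 at 35.6 CPM per kb and Cav2 at 29.4 CPM per kb. Cav1 was the 1 gene of this list at an unadjusted p under 0.05 (57, 71 and 40 counts, chi-square p = 0.0377, adjusted 0.902). Of all genes tested, 4.89% fell under it. The muscle caveolin Cav3 and Cavin3 had 0 counts.

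**Figure D4:**
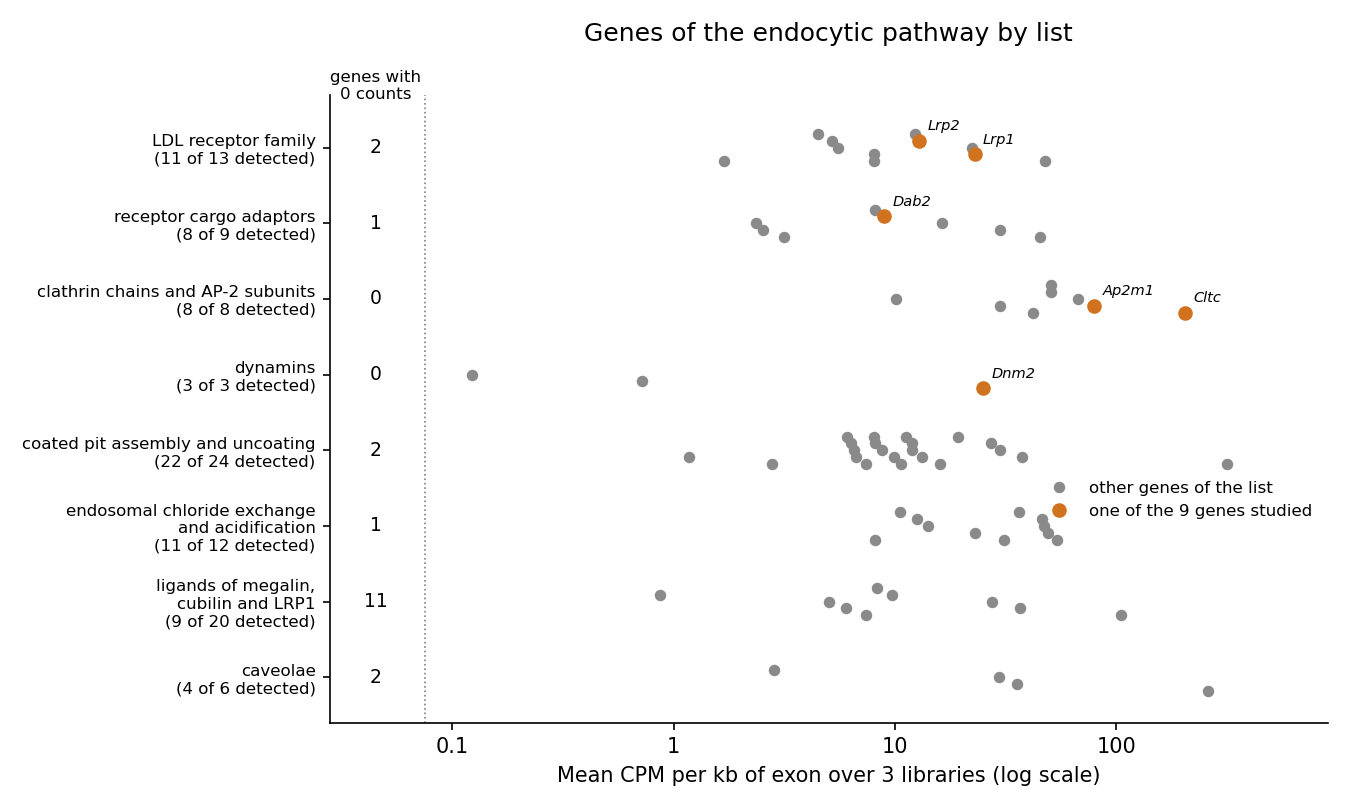
Mean level per kb of merged exon (log axis) of the genes of 8 lists, each point a gene, the studied genes in orange, and the number of genes with 0 counts printed at the left. All 8 clathrin and AP-2 genes lie at 10 CPM per kb or more, Dnm2 lies far above the other dynamins. Of the 20 genes of the ligand list, which includes the receptor gene Cd320, 11 had no count.

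Because megalin and cubilin are best known from the proximal tubule, its other markers and those of other cell types were read in the same libraries. Of 21 proximal tubule markers, which include Lrp2, Cubn and Amn, 6 were detected, against 50.6% of all protein-coding genes. At 10 CPM or more there were 5, against 40.8%. Besides Lrp2 and Cubn, the detected markers were the water channel Aqp1 (22.9 CPM per kb), Ass1 (6.73), Ggt1 (3.83) and Slc4a4 (1.72). The defining transporters Slc34a1, Slc5a2 and Slc22a6 had 0 counts, as did Hnf4a, a factor of proximal tubule genes. Of 12 distal convoluted tubule markers 5 were detected, against the same 50.6%, led by Wnk4 (10.9), Cnnm2 (3.82) and Kcnj10 (1.23 CPM per kb). Only 2 reached 10 CPM, against 40.8%, and Kcnj10 rested on 3, 2 and 4 counts. The other 7 had 0 counts, among them the defining cotransporter gene Slc12a3. The transporter that defines the labelled cell type was thus not detectable at this depth, with a limit of 2.20 CPM. The summed level of the proximal tubule list was 299.9 to 352 CPM over the libraries, and that of the distal list 66.3 to 94.1 CPM. Lrp2 alone, with 16.7 kb of exon, held a mean of 215 CPM of the former. These sums are not scaled by length and the lists hold 21 and 12 genes, so the lists cannot be ranked by them.

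Some markers of other cells were detected too, where 50.6% of all protein-coding genes were. Of 7 podocyte markers 4 were detected, led by Podxl (21.2 CPM per kb), Cdkn1c (7.14) and Synpo (3.17), and Nphs1 had 0 counts (summed level 147 to 186 CPM). Of 8 macrophage markers 2 were detected, Csf1r (7.93 CPM per kb) and Cd68 (2.96), while Ptprc had 0 counts (37.3 to 62.7 CPM). Of 10 fibroblast markers 4 were detected, led by Tagln (3.68 CPM per kb), Col1a1 (1.11) and Acta2 (1.01), and Col1a2 had 1 count (13.4 to 26.9 CPM). Acta2 rested on 2, 1 and 0 counts. At 10 CPM or more, reached by 40.8% of all protein-coding genes, there were 3 podocyte, 1 macrophage and 0 fibroblast markers. Lrp1 is carried by many cell types. The samples are cultures of 1 cell line, and the presence of any other cells in them was not tested.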

How the data were processed

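The authors deposited raw counts, whole numbers of reads per gene, for 3 libraries made from total RNA once ribosomal RNA had been removed. Per the submitters' processing notes, STAR and HTSeq were among the tools and mm10 was the build. Neither their settings nor the handling of multiply matching reads is stated.

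Names, positions and merged exon lengths came from GENCODE M21 (GRCm38, 55227 of 55487 identifiers matched) and promoter windows from RefSeq. Library sizes used edgeR 4.0.16 (TMM, factors 0.992, 1.00 and 1.01; R 4.3.3), and tests used scipy 1.17.1. The chi-square test, checked on simulated data, covered genes averaging 1 CPM or more, at an adjusted threshold of 0.05. Pair ratios used a pseudocount of 0.5 CPM. Intervals (95%) and limits (3 counts) cover counting error only, since reads without molecular identifiers are not independent molecules.

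The rule named the 9 genes, the genes of the pairs, the 3 highest of each list, pathway genes at 0 counts, the defining markers and the 3 genes nearest to Lrp2. The other genes, and the sums over complexes and families, were added after values were seen. Some genes of the lists and pairs are not reported here and are left out of their counts. Members and lists were chosen with earlier results of these data known. Alternatives were DESeq2 1.42.0 size factors, library totals, other filters, lengths and pseudocounts, and leaving out each replicate.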

Additional observations from a re-analysis of the deposited data

How the results depend on the processing

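The 8 detected genes and the absence of a called difference between replicates held under DESeq2 size factors, library totals and leaving out each replicate. The detected number was 7 at 10 CPM. With the longest transcript as the length, the median over the 9 genes was 14.0 CPM per kb. Of 153 pair values under alternatives, 148 kept their direction. Many of them could hardly do otherwise. Library-size settings nearly cancel in a ratio within a library. Leaving out a replicate cannot turn a pair that had the same direction in all libraries. Lrp2 with Lrp1 and Lrp2 with Dab2 were also counted in both orders. The number is therefore no measure of robustness. The reversed log2 ratios were Dab2 to Lrp2 with the longest transcript (0.017, and -0.017 the other way round), Dnm2 to Lrp1 (-1.59) without length scaling, Cubn to Amn at a pseudocount of 1 CPM (-0.42), and Dab2 to Lrpap1, which ran from -0.0093 without replicate 2 to 0.21 without replicate 1. These alternatives act through the length or the pseudocount by construction, except the last, where replicate 2 holds the lowest Lrpap1 count. No paired analysis was possible because the labels give 1 group. Depth limits Cubn, Amn, Dnm1 and Dnm3, at 7, 0, 5 and 4 counts.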
